A study of Mus musculus with 6 samples.

Results

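The 10 genes described here encode enzymes that make serine, glycine, one-carbon units and asparagine, and were taken by symbol from the 16880 genes of the deposited expression table. They are Phgdh, Psat1 and Psph of serine synthesis, the cytosolic one-carbon enzymes Shmt1 and Mthfd1, the mitochondrial one-carbon enzymes Shmt2, Mthfd2, Mthfd1l and Aldh1l2, and Asns of asparagine synthesis. RNA was sequenced from ATDC5, a mouse chondrogenic cell line, after stimulation with IL-1β at 10 ng/mL (the IL group) or with the same dose of IL-1β together with NP-G2-044 at 10 μmol/L (the ILN group). The compound inhibits FSCN1, a protein that bundles actin filaments. Each group had 3 libraries, and exposure lasted 24 h according to the methods. All 6 libraries therefore came from cells given IL-1β, an inflammatory cytokine, and the cells that received DMSO in the methods were not analysed here. The titles of the ILN samples name NP-G2-044 whereas their treatment field names NP-G2-047, and the paper describes the cells as mouse chondrocytes.

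In serine synthesis a glycolytic intermediate is oxidised by PHGDH, aminated by PSAT1 and dephosphorylated by PSPH. Serine hydroxymethyltransferase then splits serine into glycine and a one-carbon unit carried on folate, in the cytosol by SHMT1 and in mitochondria by SHMT2. The mitochondrial arm oxidises this unit through MTHFD2, releases it as formate through MTHFD1L or burns it to carbon dioxide through ALDH1L2, while in the cytosol the single enzyme MTHFD1 takes up formate and supplies purine, thymidylate and methionine synthesis. ASNS makes asparagine from aspartate and glutamine, and it is a textbook target of the transcription factor ATF4, which acts when amino acids run short. Glycine is also a main building block of collagen, the chief protein of cartilage matrix.

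The composite site that C/EBP and ATF factors bind was sought in the promoters because the Asns promoter is known for it. Promoter windows of RefSeq (GRCm38.p6, from 250 bases before to 50 bases after a gene's start) were found for 9 of the 10 genes, all but Aldh1l2, and Psat1 had a window at each of 2 starts. The starts used for Mthfd2 (83317604) and Psat1 (15924622 and 15925059) lie far inside their GENCODE vM21 spans. On the minus strand these spans begin at 83325908 and 15947337. Sequence outside the windows was not searched. The composite site, TGATGNAAN on either strand, was in the window of Asns and in no other of these windows, against 3.95% of all 32851 windows. The 30 bases around it lie 34 to 5 bases before the RefSeq start, at chr6:7693214-7693243 on the minus strand, where the GENCODE vM21 model of Asns already has its first exon, and the capitals mark the site.
Asns: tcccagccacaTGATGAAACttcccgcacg
The stretches just before the starts of both compartment pairs are set side by side, since the results turn on the contrast between them. Capitals mark the CCAAT box, CCAAT or its reverse complement ATTGG, which 37.41% of all windows hold.
Mthfd2, mitochondrial, chr6:83317607-83317704, minus strand: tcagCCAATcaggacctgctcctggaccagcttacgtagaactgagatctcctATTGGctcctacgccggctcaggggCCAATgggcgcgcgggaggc
Mthfd1, cytosolic, chr12:76255132-76255231, plus strand: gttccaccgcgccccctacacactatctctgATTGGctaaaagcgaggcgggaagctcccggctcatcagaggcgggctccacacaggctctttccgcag
Shmt2, mitochondrial, chr10:127522445-127522544, minus strand: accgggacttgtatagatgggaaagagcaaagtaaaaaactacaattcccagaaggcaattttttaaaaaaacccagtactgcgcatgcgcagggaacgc
Shmt1, cytosolic, chr11:60811266-60811365, minus strand: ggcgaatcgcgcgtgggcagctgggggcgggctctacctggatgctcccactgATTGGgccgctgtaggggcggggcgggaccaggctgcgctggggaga
The box did not sort the pairs by compartment, as Mthfd2 had 3, Mthfd1 and Shmt1 had 1 each and Shmt2 had none in these letters. The window of Shmt2 was also the poorest in G and C of the 9 genes, at 42.7%, against 60.7% for Shmt1, 55.7% for Mthfd2 and 59% for Mthfd1. A match describes the sequence and does not show binding.

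**Figure D1:**
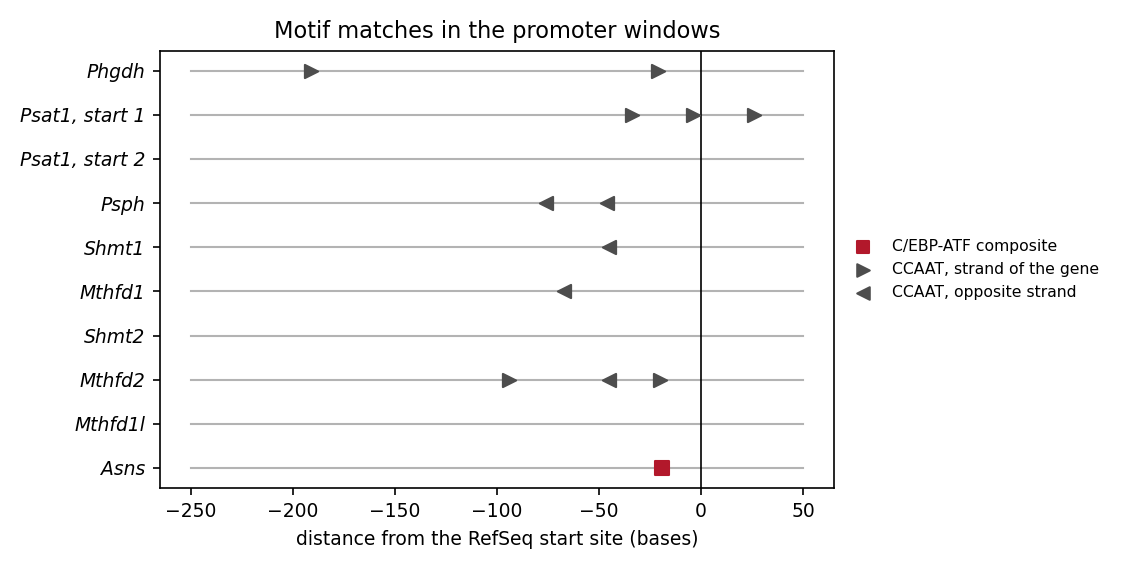
Motif matches in the RefSeq promoter windows of 9 genes, with Psat1 shown at both of its starts, by distance in bases from the start site. The single composite site (square) is that of Asns, at 23 to 15 bases before the start, while CCAAT boxes (triangles, pointing right on the strand of the gene and left on the opposite strand) are found in genes of both compartments.

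Between 16615824 and 17735860 reads were assigned per library. Over genes above a floor of reads, the squared difference between libraries of 1 group averaged 1.54 to 2.39 times the variance of sampling noise. Between groups it averaged 133.1 to 135.8 times that variance. The methods call the libraries biological replicates and describe the replicates of the study's experiments in general as independent. The legend of the sequencing figure gives, besides the replicates per condition, a larger number of independent experiments. How the cultures behind these libraries were kept apart is stated neither there nor in the labels, so the spread and the p-values cover only these samples. Of 12 chondrocyte markers, 7 are listed and only Sox9 was above 1 TPM (a level scaled by transcript length and library total) in every library. Sox9 was higher in the ILN group, at 5.94 to 7.21 TPM in the IL group and 11.31 to 11.42 TPM in the ILN group. Col2a1 was lower, at 0.20 to 0.24 TPM in the IL group from only 32 reads in all. In the ILN group Col2a1 was at 0.02 to 0.06 TPM from 6 reads, and Matn1 was at 0. Among markers of other cells, Cd68 went from 10.62 to 13.97 TPM in the IL group to 123.92 to 134.67 TPM in the ILN group while Ptprc, which defines leukocytes, was at 0 in all libraries. The fibroblast list, nearly all of it Col1a2, summed to 1101 to 1148 TPM against 335.9 to 349.6 TPM. The part of these shifts in the results below was not tested. In bulk RNA, fewer cells with a transcript and less of it per cell cannot be told apart.

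The transcripts of 9 of the 10 genes were higher in the ILN group and that of Mthfd1 was lower. The genes were chosen by the difference in read count and TPM between these same groups, so their values are given as a description, with the standard error (SE) of edgeR's quasi-likelihood fit, and nothing is read from a test of them. Values after ± are the SD over the libraries of a group (n = 3). For all 10 genes the groups did not overlap in TPM, as for 79.4% of all genes tested, and 38% of all genes tested were apart and higher in the ILN group. For 6 of the 10 the log2 fold change exceeded 1 and edgeR gave an adjusted p under 0.05, and 6.48% of the 11983 genes tested were higher past both of these cutoffs. As the choice used this contrast, the 6 only describe the members. Together the 10 transcripts made up 0.116% ± 0.00213 of all TPM in the IL group and 0.324% ± 0.00203 in the ILN group. Their median log2 fold change was 1.34, next to 0.00185 over all genes tested. Positions below are those of GENCODE vM21 on GRCm38.

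In the IL group, the order of the mean levels from the highest was Shmt2, Psat1, Phgdh, Asns, Mthfd2, Psph, Shmt1, Mthfd1l, Mthfd1 and Aldh1l2. The libraries overlapped for 4 pairs of neighbours in that order, namely Psat1 and Phgdh, Mthfd2 and Psph, Psph and Shmt1, and Mthfd1l and Mthfd1. In the ILN group the order was Shmt2, Asns, Phgdh, Psph, Mthfd2, Psat1, Aldh1l2, Shmt1, Mthfd1l and Mthfd1, and no neighbours overlapped. Shmt2 thus stayed first, whereas Aldh1l2 left the last place, which Mthfd1 took.

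**Figure D2:**
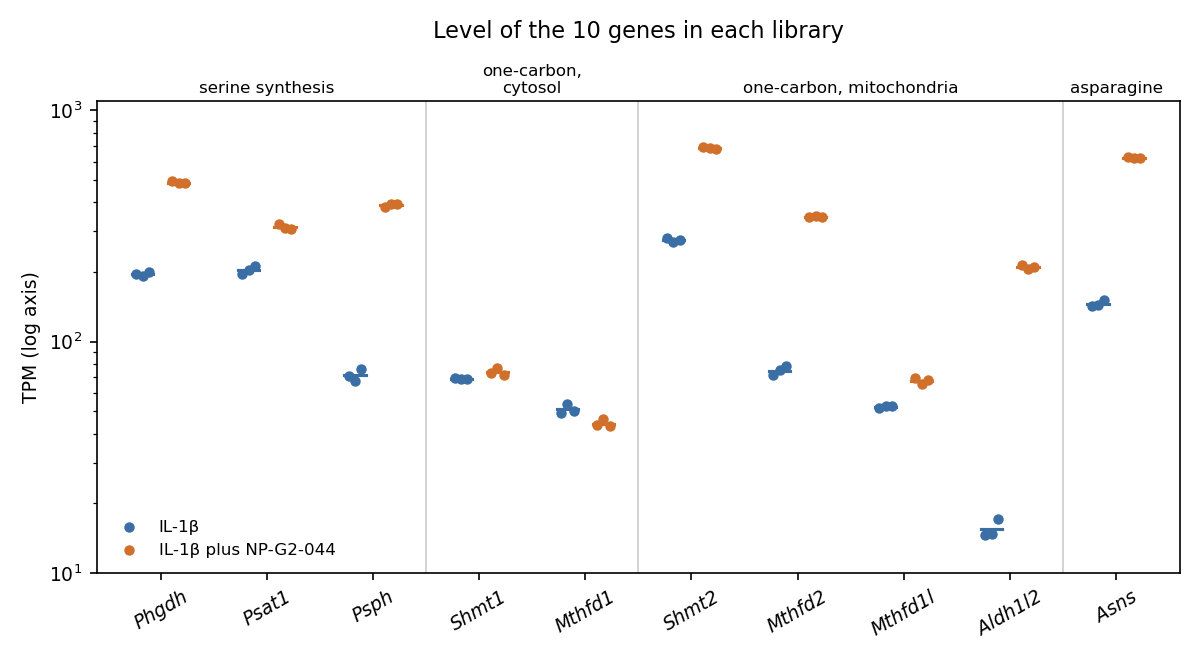
Levels of the 10 genes in TPM on a log axis, with a point per library and a line at the mean of each group (3 libraries each). The groups are far apart for Psph, Mthfd2, Aldh1l2 and Asns and close together for Shmt1, Mthfd1 and Mthfd1l, with Aldh1l2 going from 15.5 to 209.6 TPM and Shmt1 from 69 to 73.7 TPM.

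Among the serine synthesis genes, the last step was the furthest apart between the groups and the middle step the least. Phgdh (Entrez gene 236539, chr3:98313170-98339990) encodes the first enzyme of the pathway. It was at 196.74, 193.05 and 200.45 TPM in the IL libraries and at 494.28, 483.98 and 483.32 TPM in the ILN libraries. All ILN libraries lay far above the IL libraries, with a log2 fold change of 1.34 (SE 0.0287) and a 2.48-fold ratio of the means. Transcripts of 21 other GENCODE genes, 17 of them processed pseudogenes, matched that of Phgdh over at least 100 bases at 90% identity or more, up to 1621 bases long. None of the 21 has a row in the table, so how reads of such copies were assigned is not known and the level of Phgdh is uncertain to that extent. The same holds, with 1 processed pseudogene each, for Psat1 (1056 bases at 91% identity) and Shmt2 (233 bases at 90.1%).

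Psat1 (Entrez gene 107272, chr19:15904678-15947337) encodes the transaminase that consumes glutamate at the second step. Its level was 196.85, 204.93 and 211.26 TPM in the IL group and 323.48, 310.53 and 307.26 TPM in the ILN group, a log2 fold change of 0.65 (SE 0.0289). Psat1 and Phgdh had nearly the same level in the IL group, at a ratio of Phgdh to Psat1 of 0.963 ± 0.0314 within a library. In the ILN group this ratio was 1.55 ± 0.023.

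Psph (Entrez gene 100678, chr5:129765558-129787449) encodes the phosphatase that releases serine. It was the lowest of the 3 in the IL group, at 70.99, 67.82 and 75.85 TPM, and passed Psat1 in the ILN group, at 381.68, 394.75 and 393.43 TPM. The log2 fold change was 2.38 (SE 0.0363), and the ratio of Psph to Psat1 within a library went from 0.35 ± 0.0167 to 1.24 ± 0.0556. Exons of Psph overlap those of Cct6a on the opposite strand over 452 bases, and unless counting used strand the reads from such shared bases cannot be told apart. Cct6a itself, a chaperonin subunit, was at 362.54 to 384.38 TPM and 351.04 to 358.28 TPM, with a log2 fold change of -0.03. The sum of the 3 serine synthesis transcripts was 472.6 ± 12.9 and 1191 ± 7.85 TPM, 2.52 times as much in the ILN group.

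The 2 serine hydroxymethyltransferases catalyse the same reaction on either side of the mitochondrial membrane, and only small differences were seen on the cytosolic side. Shmt1 (Entrez gene 20425, chr11:60788104-60811718) was at 69.37, 68.75 and 68.79 TPM in the IL group and at 73.07, 76.61 and 71.46 TPM in the ILN group. Its log2 fold change was 0.13 (SE 0.0385), and its exons overlap those of Smcr8 on the opposite strand over 184 bases, where Smcr8 had a log2 fold change of 0.38. Shmt2 (Entrez gene 108037, chr10:127517123-127522444) was the most abundant of the 10 transcripts in every library. It was at 280.99, 268.89 and 275.3 TPM in the IL group and at 692.41, 685.32 and 680.62 TPM in the ILN group, a log2 fold change of 1.35 (SE 0.0281). Shmt2 accounted for 80% ± 0.286 of the transcripts of both genes in the IL group and for 90.3% ± 0.307 in the ILN group.

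The mitochondrial folate enzymes differed widely among themselves. Mthfd2 (Entrez gene 17768, chr6:83305691-83325908) encodes the dehydrogenase and cyclohydrolase that proliferating and embryonic cells use. Its libraries gave 71.37, 75.05 and 78.48 TPM in the IL group and 345.85, 349.08 and 347.36 TPM in the ILN group. The log2 fold change was 2.24 (SE 0.0323), and the ILN libraries lay closer together than the IL libraries. Mthfd2l, the paralog of the same step, was at 28 ± 0.424 and 31.9 ± 1.77 TPM, a rise of 0.20 on the log2 scale (adjusted p = 0.000524 by edgeR). The ratio of Mthfd2 to Mthfd2l within a library went from 2.68 ± 0.107 to 10.9 ± 0.627.

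Mthfd1l (Entrez gene 270685, chr10:3973118-4167081) encodes the synthetase that turns the mitochondrial unit into formate for export. It was at 51.43, 52.65 and 52.52 TPM in the IL group and at 69.6, 65.4 and 68.34 TPM in the ILN group, a log2 fold change of 0.41 (SE 0.0331), the smallest of the 4 mitochondrial genes. Relative to Mthfd1l within the same library, Mthfd2 went from 1.44 ± 0.054 to 5.13 ± 0.189.

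Aldh1l2 (Entrez gene 216188, chr10:83487450-83534140) encodes the mitochondrial dehydrogenase that oxidises formyl folate to carbon dioxide and yields NADPH. It was the lowest of the 10 in the IL group, at 14.56, 14.73 and 17.07 TPM from 900, 884 and 1047 reads. In the ILN group it was at 213.5, 206.11 and 209.31 TPM from 13802, 13627 and 13863 reads. The log2 fold change of 3.79 (SE 0.0375) was the largest of the 10, a 13.6-fold ratio of the mean TPM. Exons of D10Wsu102e overlap those of Aldh1l2 on the opposite strand over 1056 bases, 14.1% of the exonic bases of Aldh1l2, and D10Wsu102e had a log2 fold change of 0.01 (SE 0.0355). The cytosolic counterpart Aldh1l1 had 6 reads over the IL libraries and 3 over the ILN libraries, and at so few reads no fold change or compartment ratio was formed.

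Mthfd1 (Entrez gene 108156, chr12:76255298-76319803), whose single protein performs the cytosolic steps in turn, was the 1 gene of the 10 with a lower level. It was at 49.16, 53.69 and 50.2 TPM in the IL group and at 43.6, 46.06 and 43.03 TPM in the ILN group. The log2 fold change was -0.17 (SE 0.0378), and the highest ILN library was under the lowest IL library.

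Asns (Entrez gene 27053, chr6:7675169-7693254), whose promoter site is printed above, stood with Psph and Mthfd2 in the size of its difference. It was at 142.58, 144.4 and 150.99 TPM in the IL group and at 627.06, 624.3 and 619.97 TPM in the ILN group. The log2 fold change was 2.13 (SE 0.0294), and Asns moved from the fourth to the second place in level among the 10.

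The comparison between compartments can be read within each library, where the depth of the library cancels. The ratio of Shmt2 to Shmt1 was 4.05, 3.91 and 4.0 in the IL libraries and 9.48, 8.95 and 9.52 in the ILN libraries. The ratio of Mthfd2 to Mthfd1 was 1.45, 1.40 and 1.56 against 7.93, 7.58 and 8.07. For Mthfd1l and Mthfd1, close to equal at 1.05, 0.981 and 1.05 in the IL group, it was 1.60, 1.42 and 1.59 in the ILN group. The groups did not overlap in any of these ratios, but the genes were chosen by this contrast. Taken singly, 79.4% of all genes tested did not overlap either, and ratios of other gene pairs were not formed for comparison. So the separation only describes these ratios. The difference between the groups was far smaller for Mthfd1l than for Mthfd2.

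Summed, the 4 mitochondrial one-carbon transcripts were at 417.7 ± 6.05 TPM in the IL group and at 1311 ± 9.0 TPM in the ILN group, 3.14 times as much. The 2 cytosolic ones summed to 118.5, 122.4 and 119 TPM and to 116.7, 122.7 and 114.5 TPM, and here the groups overlapped, as Shmt1 was higher and Mthfd1 lower. The mitochondrial sum was 3.48 ± 0.107 times the cytosolic sum in the IL group and 11.1 ± 0.417 times in the ILN group. Within the mitochondrial sum the share of Shmt2 was 65.9% ± 1.15 against 52.3% ± 0.183, and that of Aldh1l2 was 3.70% ± 0.294 against 16% ± 0.191. Expressed as log2 fold changes from the fit, Shmt2 exceeded Shmt1 by 1.22, Mthfd2 exceeded Mthfd1 by 2.41 and Mthfd1l exceeded Mthfd1 by 0.58.

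**Figure D3:**
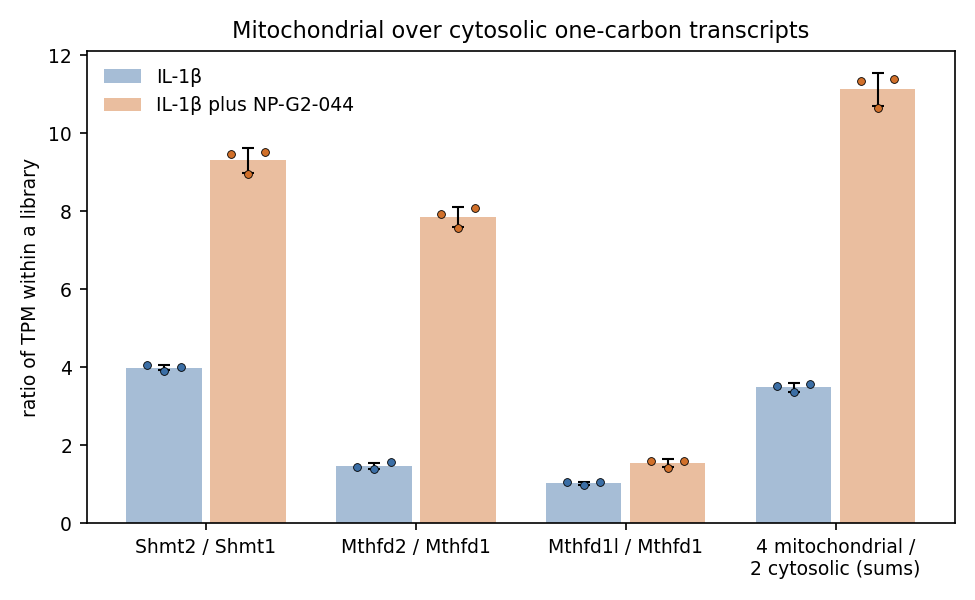
Ratio of mitochondrial to cytosolic one-carbon transcripts in TPM within each library, with bars at the mean, error bars of 1 SD and a point per library (3 per group). The ratio of the sums of the 4 mitochondrial and the 2 cytosolic genes goes from 3.48 to 11.1, and that of Mthfd1l to Mthfd1 only from 1.02 to 1.54.

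Genes of the neighbouring pathways were compared to see how far such differences reached. Of 62 genes in lists that leave out the 10, 59 are listed and 48 were tested. At an adjusted p under 0.05 by edgeR, 25 of the 48 rose, against 40.2% of all genes tested, and 14 fell, against 39.8%. Past both cutoffs 5 rose and 1 fell, where 6.48% and 10.1% of all genes did. The median log2 fold change of the 48 was 0.13. The rises past both cutoffs were those of Cth, Got1, Gpt2, Aldh18a1 and Pycr1, and the fall was that of Tyms.

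In the cytosolic folate cycle, 5 of 8 tested genes rose, 1 fell and 2 did not pass the test. Tyms, which spends one-carbon units on thymidylate for DNA, fell from 45.1 ± 0.185 to 19.2 ± 0.146 TPM (log2 fold change -1.19, SE 0.0402, adjusted p = 2.64e-32 by edgeR).

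In the remaining mitochondrial folate genes, 3 of 4 tested genes rose and 1 fell, none past the fold cutoff. Mtfmt, which formylates the initiator methionyl-tRNA of mitochondria, rose from 19.3 ± 0.966 to 25 ± 1.79 TPM (log2 fold change 0.40). Slc25a32, the mitochondrial folate carrier, rose by 0.26 on the log2 scale. Among 7 tested carriers and folate-retaining enzymes, 3 rose, 2 fell and 2 did not pass. Sfxn1, which carries serine into mitochondria, was at 109.4 ± 2.06 and 103.2 ± 3.56 TPM (log2 fold change -0.05, SE 0.031, adjusted p = 0.123 by edgeR), and it passed as lower under 3 of 14 alternatives (adjusted p from 0.0178 to 0.519 over all 14). Of its relatives, Sfxn3 rose by 0.18 on the log2 scale, and Sfxn2, named after its values were seen, fell from 5.07 ± 0.225 to 3.07 ± 0.106 TPM (log2 fold change -0.69). For glycine cleavage and other breakdown of serine or glycine, 3 of 5 tested genes rose, 1 fell and 1 did not pass. Over the alternatives between 1 and 3 of these rises were called. Only 1 was called when ILN library 3 was left out, where neither Dld (adjusted p = 0.183 by edgeR) nor Amt (0.0569) passed. The same count held with at least 10 CPM in at least 3 libraries, where Dld did not pass (adjusted p = 0.0594 by edgeR) and Amt was not tested. Dld, a subunit shared with the pyruvate dehydrogenase complex, had a log2 fold change of 0.10 and lost its call under 5 of 14 alternatives. Gcsh had a log2 fold change of -0.04 (adjusted p = 0.301 by edgeR).

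Asns shares its substrates with the aspartate, glutamate and alanine list, where 5 of 8 tested genes rose and 3 fell. Gpt2, the mitochondrial alanine transaminase, rose from 10.2 ± 0.742 to 69.4 ± 0.645 TPM (log2 fold change 2.80, SE 0.0402, adjusted p = 1.88e-49 by edgeR). Got1, the cytosolic aspartate transaminase, rose from 50.5 ± 2.07 to 209.2 ± 6.51 TPM (log2 fold change 2.08, SE 0.0353, adjusted p = 4.46e-46 by edgeR). Its mitochondrial counterpart Got2, named after its values were seen, fell from 440.2 ± 7.8 to 373.9 ± 3.99 TPM (log2 fold change -0.20, adjusted p = 2.53e-09 by edgeR). In the Got pair the cytosolic gene was the one that rose, the reverse of the hydroxymethyltransferase pair. The ratio of Got1 to Got2 went from 0.115 ± 0.00671 to 0.559 ± 0.0128. In the alanine transaminase pair the mitochondrial gene rose instead. Gpt, the cytosolic counterpart of Gpt2 and also named after its values were seen, fell from 7.53 ± 0.411 to 5.24 ± 0.455 TPM (log2 fold change -0.49, adjusted p = 0.000187 by edgeR).

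Proline is, with glycine, the amino acid that collagen uses most. Of 7 tested genes of the proline and ornithine list, 3 rose, 1 fell and 3 did not pass. Aldh18a1, which begins proline synthesis in mitochondria, rose from 87.6 ± 3.46 to 244.6 ± 5.8 TPM (log2 fold change 1.52, SE 0.0296, adjusted p = 2.63e-43 by edgeR). Pycr1, which completes it there, rose from 40.6 ± 0.676 to 189.8 ± 7.86 TPM (log2 fold change 2.26, SE 0.0389, adjusted p = 9.1e-46 by edgeR).

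**Figure D4:**
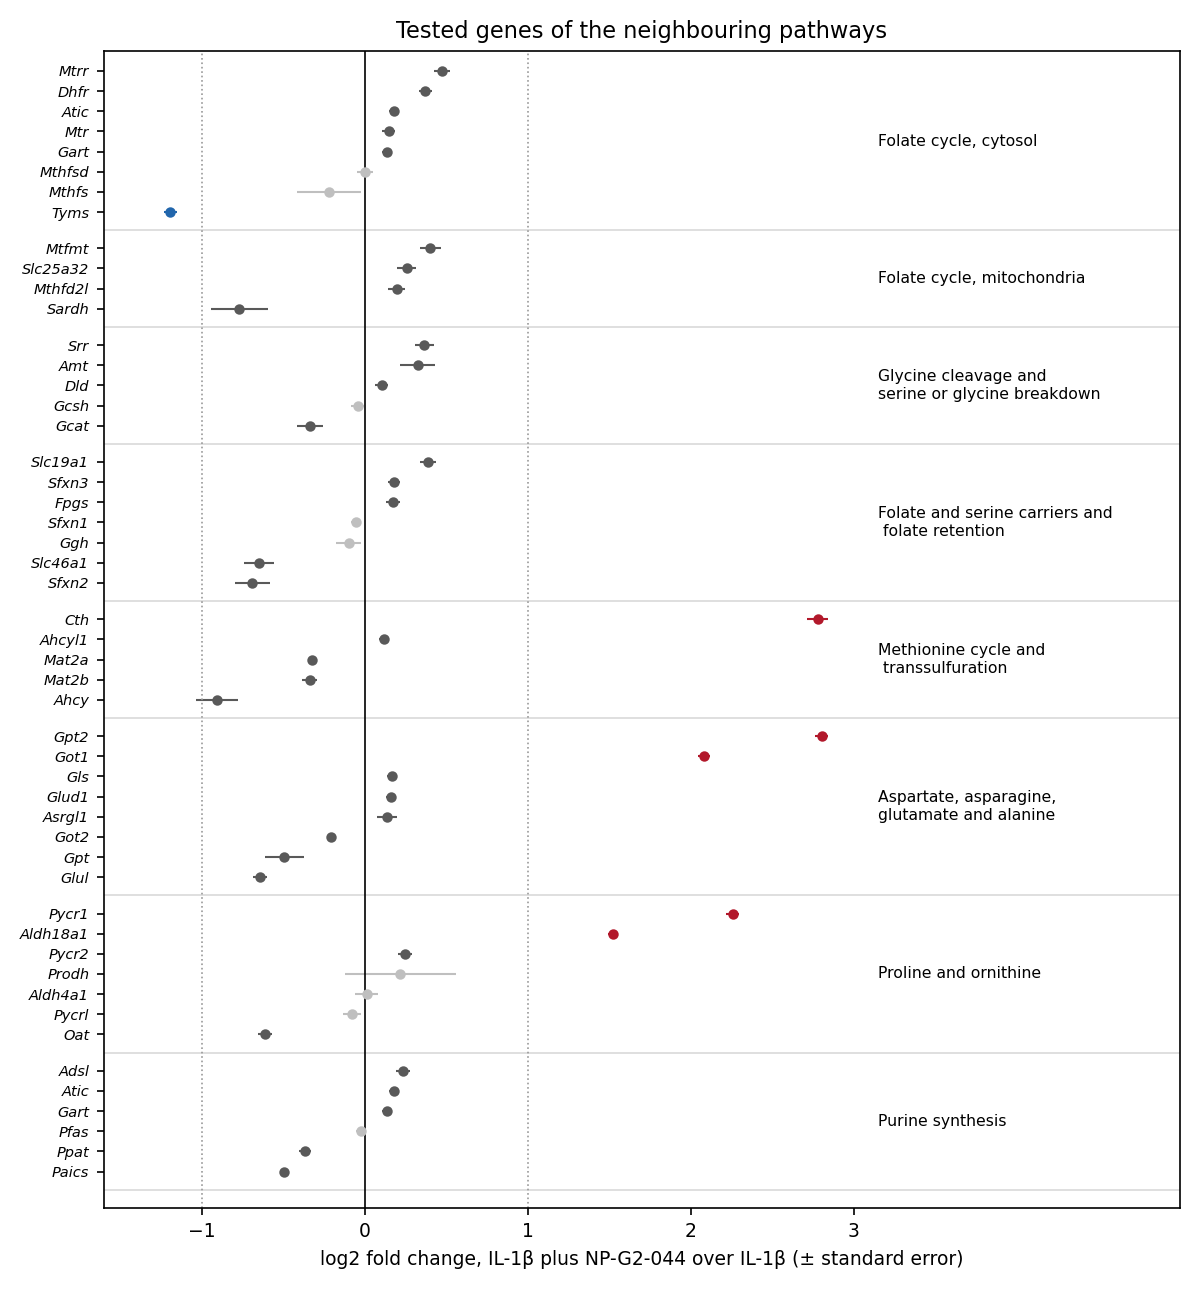
Log2 fold change (ILN over IL) with its standard error for the tested genes of 8 neighbouring pathway lists, where Gart and Atic stand in both the folate and the purine list. Red and blue mark genes past both cutoffs, dark grey those with an adjusted p below 0.05 alone and light grey those that did not pass, and the 5 red points stand apart from the rest of their own lists.

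Regulators and other genes of the amino acid and stress response were set beside Asns. Of 8 such genes, 7 rose past both cutoffs, where 6.48% of all genes tested did. The largest rises were those of Atf3, Trib3 and Chac1, with log2 fold changes of 5.28, 5.06 and 4.68. Atf4, named after its values were seen, was at 176.3 ± 6.06 and 840.5 ± 17.3 TPM (log2 fold change 2.30, against 2.13 for Asns). Cebpb, also named after its values were seen, was at 83.3 ± 16.1 and 78.4 ± 24.6 TPM with overlapping libraries (adjusted p = 0.864 by edgeR). Whether any of these genes acts on Asns or on the other members in these cells was not tested.

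The coefficient of variation in TPM within a group lay between 0.465% and 9.08% over the 10 genes, the lowest for Mthfd2 in the ILN group and the highest for Aldh1l2 in the IL group, the gene with the lowest level.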

How the data were processed

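The libraries were prepared with an Illumina TruSeq RNA kit and were sequenced and quantified by BGI. The submitters' processing notes name cutadapt, HISAT2 2.0 and StringTie and the build mm10, while the sources used here give neither the annotation nor whether strand was used in counting. The authors deposited, for each gene and library, an estimated count that is not normalized, of which 10.17% to 11.06% per library are not whole, together with TPM and FPKM. The authors' FPKM and their means per group were left aside.

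After rounding, genes passing filterByExpr at a minimum count of 10 were scaled by TMM. The groups were tested by quasi-likelihood in edgeR 4.0.16 (R 4.3.3, no covariates), and p was adjusted by Benjamini-Hochberg over 11983 genes. The cutoffs, those of the study, are 0.05 for adjusted p and 1 for the size of the log2 fold change. The standard error is the size of the log2 fold change divided by the root of its F statistic. All p-values come from this fit or its alternatives, and the steps were tested on simulated counts. Totals per library were 16615824 to 17735860 reads, with a common biological coefficient of variation of 2.33%.

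The members and the lists were chosen with earlier results of these data known. A gene of the folate list was left out of its counts and is not reported here. The named genes are the 10 members, their counterparts Aldh1l1, Mthfd2l, Slc25a32 and Sfxn1, and in each list up to 3 rises and 3 falls past both cutoffs or, with none, the 2 genes highest in TPM, and others are said where named to be chosen after their values were seen. Positions, exon overlaps and near copies (blastn) are from GENCODE vM21 on GRCm38. Alternatives were DESeq2 1.42.0, its size factors or library size alone in edgeR, limma 3.58.1 on log2(TPM + 1) and log2(TPM + 0.1), no filter, a floor of 10 CPM reached by 3 or more libraries, a block for replicate number, and each library left out.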

Additional observations from a re-analysis of the deposited data

How the results depend on the processing

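Over the 14 alternatives, 129 of 140 log2 fold changes of the 10 genes stayed within 1 SD of the replicates, 11 moved by more and none changed sign, with a largest shift of 0.113. With each library left out, Shmt2 exceeded Shmt1 by 1.21 to 1.25, Mthfd2 exceeded Mthfd1 by 2.38 to 2.46, Mthfd1l exceeded Mthfd1 by 0.549 to 0.634, and the mean of Mthfd2 and Mthfd1l exceeded Mthfd1 by 1.46 to 1.54 on the log2 scale. The counts past both cutoffs over all genes, 776 higher and 1211 lower, were 514 and 802 with limma on log2(TPM + 1), where the added 1 shrinks the fold of low genes, 484 and 680 with at least 10 CPM in at least 3 libraries, where fewer genes are tested, 1011 and 1556 without a filter, where more are, and 785 to 822 and 1216 to 1276 with each library left out. The 6 pathway genes past both cutoffs were called under all 14 alternatives, and without a filter Cbs, at 6 reads against 0, made 2 lower in place of 1. At an adjusted p below 0.05 alone, 8 of the 48 pathway genes had another call under at least 1 alternative, and 21 to 25 were higher and 11 to 17 lower. The 11 came with at least 10 CPM in at least 3 libraries, where Ahcy, Gpt, Sardh and Sfxn2 were not tested. Samples of the 2 groups share only replicate numbers: their deviations from the group means correlated at -0.102, -0.0263 and 0.015 for the same number, and no IL-1β library correlated best with its own number. With the replicate number as a block, 775 genes were higher and 1209 lower past both cutoffs, Shmt2 exceeded Shmt1 by 1.22, and no other call changed among those named. Depth limits Aldh1l1 and the 10 other pathway genes that were too low to test. It also limits tested genes with few reads, such as Prodh, with 31 over the IL libraries and 38 over the ILN libraries (SE 0.342).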

Other observations

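Sulfur amino acid metabolism takes serine and the methyl groups made from one-carbon units. In the methionine cycle and transsulfuration list 2 of 5 tested genes rose and 3 fell, with a median log2 fold change of -0.32. Of all genes tested, 40.2% rose and 39.8% fell at the same adjusted p, so the mixed directions are not read as a trait of this list. Cth, which releases cysteine at the last step of transsulfuration, rose from 9.81 ± 0.592 to 65.6 ± 3.18 TPM (SD over 3 libraries each, log2 fold change 2.78, SE 0.0633, adjusted p = 3.48e-40 by edgeR). Cbs, which joins serine to homocysteine at the step before and is named after its values were seen, had 6 reads over the IL libraries and 0 over the ILN libraries, too low to test.

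Purine synthesis draws glycine and formyl groups from the pathway. Of its 6 tested genes 3 rose, 2 fell and 1 did not pass, where 40.2% of all genes tested rose and 39.8% fell. Their median log2 fold change was 0.06. Paics, the most abundant of them, fell from 328.7 ± 3.26 to 226.2 ± 2.39 TPM (SD over 3 libraries each, log2 fold change -0.49, SE 0.0276, adjusted p = 1.26e-22 by edgeR). Atic, which uses a formyl group at the end of the pathway, rose by 0.18 on the log2 scale.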
